A study of Homo sapiens with 3 samples.

Results

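The 5346 probe sets described here are rows of the deposited array table that the platform's gene annotation does not list, out of 33297 rows in all. They were chosen by that absence and by level. A row was kept where its mean over the 3 arrays was at or above 5.12 on the log2 scale. The annotation leaves out 12083 rows, and the other 6737 of them lay below that level. Because no gene, sequence or genome position is paired with these rows in the sources used here, each one is called by its probe set ID. They are unnamed here, which does not mean that they measure no gene.

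All arrays came from LNCaP, an established androgen-responsive prostate carcinoma line. The cells were harvested 72 hours after siRNA transfection with RNAiMAX in serum-containing RPMI1640, and total RNA was labelled with a whole-transcript kit. There was 1 array with a negative control siRNA and 2 arrays, titled siSE1 and siSE2, with siRNAs directed against SLC45A3-ELK4. This chimeric RNA joins a prostate-enriched membrane transporter gene to its neighbour, the ETS transcription factor gene ELK4. For the array titled siSE2 the labels give siSE1 in the field on transfection. The title was followed, and if the field is right both arrays carry the same siRNA. Nothing in the labels says whether the arrays came from separate cultures, so p-values measure only the spread between these arrays, which may be technical.

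A whole-transcript array reads a transcript through groups of short probes spread along its exons, and the probes of a group are combined into one value. Such arrays also carry probe sets that serve as controls for hybridization, background or normalization. Others were designed against transcripts that were predicted, non-coding, repeated in the genome or later withdrawn from gene catalogues. The annotation used here does not say which of these kinds an unlisted row belongs to, so the rows were grouped by their place in the ID numbering.

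In ID order the unlisted rows formed 1 long block and many short runs. The block held 4203 rows, from ID 7892501 to ID 7896738, and ended just before the first listed ID, 7896740. Within the block 4171 steps from one ID to the next were steps of 1, and the largest step was 6. The other 7880 unlisted rows were scattered in 4998 runs among the listed rows, and the longest of these runs held 18 rows. The members comprised 2726 rows of the block and 2620 scattered rows. Of the block 64.9% of the rows reached the level of 5.12, of the scattered rows 33.2%, and of the 21214 listed rows 70.6%.

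The level of the block members was spread widely. Their median was 7.99, and 756 of them (27.7%) had a mean of 10 or more. Only 5.34% of the scattered members, whose median was 6.33, and 6.01% of the listed rows above 5.12, whose median was 7.18, lay that high. Among the scattered members 39.2% lay between 5.12 and 6, near the lower limit, where 17.2% of the block members lay. These shares describe the values that chose the members and carry no test. The brightest block members were 7896631, with 13.76 in the control, 13.87 for siSE1 and 13.82 for siSE2, and 7894471, with 13.60, 13.62 and 13.64. The brightest scattered member was 7946565, with 13.68, 13.82 and 13.77 in the same order. At these levels the 3 arrays differed by little.

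**Figure D1:**
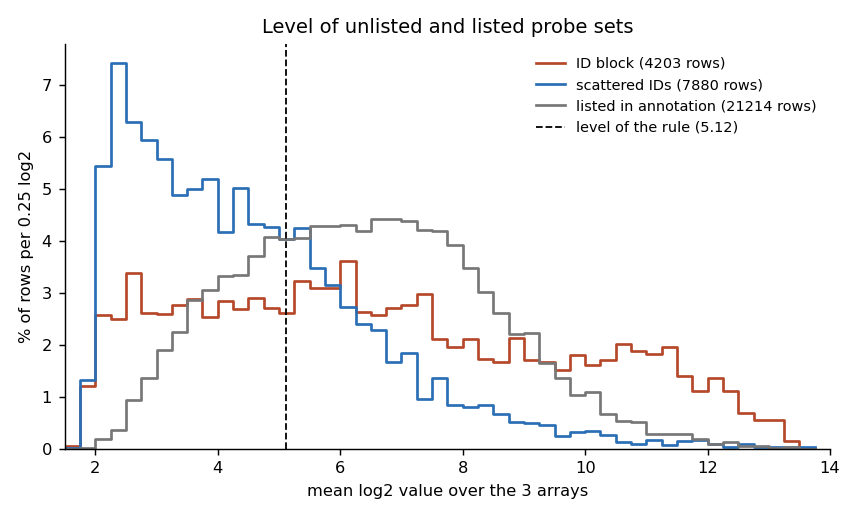
Share of rows (percent per 0.25 on the log2 scale) against the mean log2 value over the 3 arrays, for the ID block, the scattered IDs and the listed rows at any level, with the level of 5.12 dashed. The block has no single peak and extends above 10, whereas most scattered rows lie below 5.12.

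At the lower limit the rule divides rows with nearly the same mean. Just inside it, row 8174644 read 4.97 in the control, 5.23 for siSE1 and 5.16 for siSE2, and row 7896182 read 5.31, 4.50 and 5.55. Just outside it, row 8120717 read 5.34, 4.90 and 5.12, and row 8085429 read 5.15, 5.45 and 4.75.

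Across the block and the scattered IDs no member passed the test of the siRNA arrays against the control array. The test was limma with Benjamini-Hochberg adjustment over all 20315 rows with a mean of at least 5.12, listed or not, of which 0% were called higher and 0% lower. The smallest adjusted p among the members was 0.174. At an unadjusted p under 0.05, 611 members were higher (11.4%) and 377 lower (7.05%), against 6.65% and 8.09% of all rows and 4.94% and 8.46% of the listed rows. The fit has 1 residual degree of freedom, from siSE1 against siSE2, and the single control array is assumed to vary as these do. The count of 0 also depended on which rows were fitted together: with the 14969 listed rows alone, 37 listed rows were called higher and 68 lower. In simulated data with all rows in the fit, and a spread that did not vary with level, the test made more false calls than its threshold allows. The fit of the listed rows alone was not simulated. The prior degrees of freedom were 7.82 in that fit and 4.70 with the unlisted rows included.

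By size alone, with no test, 123 members were at least 1.5-fold above the control array with both siRNAs and 87 were at least 1.5-fold below it. In the block 92 members (3.37%) lay higher and 70 (2.57%) lower. Among the scattered IDs 31 (1.18%) lay higher and 17 (0.649%) lower. Over all rows tested these shares were 1.07% and 1.51%, and over the listed rows 0.635% and 1.47%. The balance of higher and lower counts depended on the scaling. With equal array medians the block had 78 higher and 85 lower and the scattered IDs 23 and 23, and with cyclic loess the counts were 89 and 77 in the block and 22 and 22 among the scattered IDs. Some of these members reached the level through the brighter arrays only and so had to differ: 23 of the 92 and 9 of the 31 higher ones read below 5.12 in the control, and 10 of the 70 and 4 of the 17 lower ones read below it on both siRNA arrays. As deposited, the scattered share was near that of all rows in the higher direction and below it in the lower one. All rows include the members themselves. Against the listed rows alone the scattered share was larger in the higher direction (1.18% against 0.635%) and smaller in the lower one (0.649% against 1.47%). Both comparisons use the same control array, so a high or low control value moves both. By siSE1 alone 236 block members (8.66%) were higher and 231 (8.47%) lower, and 135 scattered members (5.15%) were higher and 79 (3.02%) lower. By siSE2 alone the counts were 172 (6.31%) and 151 (5.54%) in the block and 56 (2.14%) and 44 (1.68%) among the scattered IDs. The background shares over all rows were 2.94% higher and 4.48% lower with siSE1, and 2.03% and 2.92% with siSE2. Over the listed rows they were 1.51% and 4.01% with siSE1, and 1.23% and 2.66% with siSE2.

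The siRNA arrays also stood farther from each other in the block. They were at least 1.5-fold apart for 267 block members (9.79%) and 76 scattered members (2.90%), against 2.54% of all rows and 1.16% of the listed rows. The SD over rows of siSE1 minus siSE2 was 0.35 in the block, 0.24 among the scattered IDs and 0.20 among the listed rows. That difference does not involve the control array. Its part in the block's larger count of rows past 1.5-fold was not tested.

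The excess in the block was largest at low levels. Between 5.12 and 6, 31 of 469 block members (6.61%) were at least 1.5-fold higher with both siRNAs and 40 (8.53%) lower, while 25.6% had siSE1 and siSE2 1.5-fold apart. Listed rows of that level gave 0.515%, 1.19% and 0.966% for the same measures. Between 9 and 10, 1 of 282 block members was higher, 0 were lower and 1.06% were apart, near the 1.20% of listed rows. At 10 and above the siRNA arrays were apart for 0.794% of the block members and 0.667% of the listed rows. In the bins from 6 to 7, 7 to 8 and 8 to 9 they were apart for 17.1%, 8.74% and 5.9% of the block members. Listed rows of those levels gave 1.17%, 1.32% and 1.29%. The share of block members with the siRNA arrays apart thus fell with level, and came near that of the listed rows only from 9 upward.

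**Figure D2:**
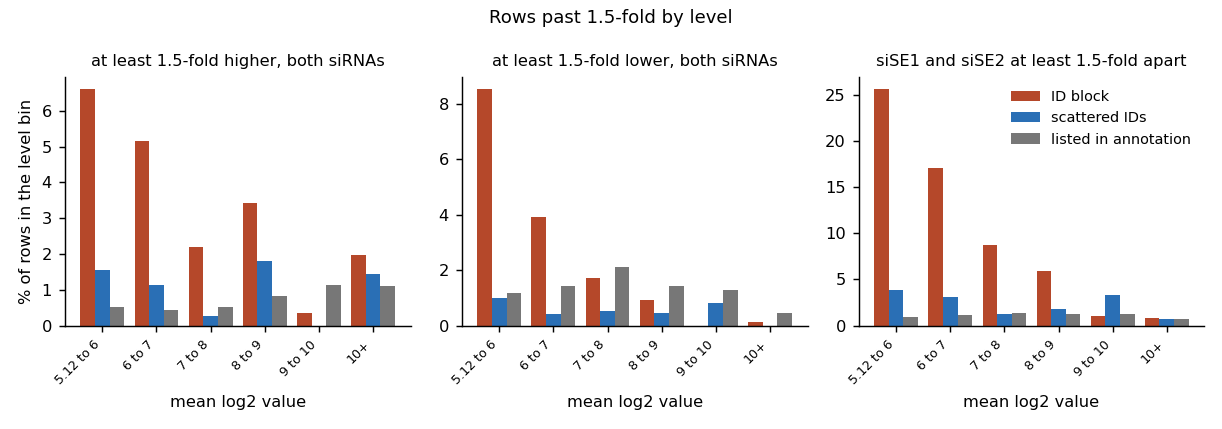
Percent of rows in each bin of mean log2 value that were at least 1.5-fold higher than the control with both siRNAs (left), at least 1.5-fold lower with both (middle), or had siSE1 and siSE2 at least 1.5-fold apart (right). Each panel has its own vertical scale from 0. In the lowest bin the block bars reach 6.61%, 8.53% and 25.6%, and from 9 upward the block bar on the right is near that of the listed rows.

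Bright block members past 1.5-fold were nearly all on the higher side. At a mean of 10 or more, 15 of 756 block members (1.98%) were higher with both siRNAs and 1 (0.132%) was lower. Among 899 listed rows of that level 10 (1.11%) were higher and 4 (0.445%) lower. With equal array medians the block counts were 11 and 1, and with quantile normalization or cyclic loess 14 and 1. The highest of these by the smaller change was 7895719, which read 10.22 in the control, 11.46 for siSE1 and 11.30 for siSE2. Row 7893354 read 10.56, 11.66 and 11.61, and row 7892882 read 10.16, 11.18 and 11.27. In each of these rows the siRNA arrays agreed within 0.17 on the log2 scale and lay about 1 above the control. The lower row, 7895674, read 11.39, 10.72 and 10.71. These 4 rows were chosen after their values were seen, and none passed the test (limma, adjusted p from 0.174 to 0.210). The scattered row 7999834, also chosen so, read 10.83, 11.71 and 11.73.

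**Figure D3:**
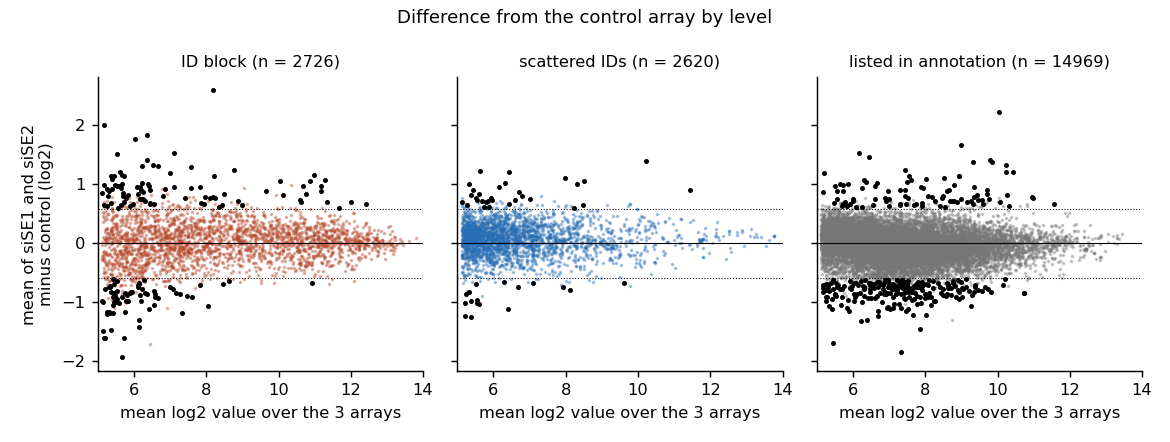
Mean of siSE1 and siSE2 minus the control value (log2) against the mean log2 value over the 3 arrays, for block members, scattered members and listed rows. Black points lie 1.5-fold or more to one side of the control for both siRNAs, and the dotted lines mark 1.5-fold. The block points fan out toward low levels, and its black points above 10 lie above 0 with 1 exception.

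Row 7893202 of the block stood farthest above the control among all members. It read 6.46 in the control, 9.30 for siSE1 and 8.79 for siSE2. The mean difference was 2.59 ± 0.23 (SE, n = 2 against 1), a 6.0-fold difference, and did not pass the test over all rows (limma, adjusted p = 0.174). The same adjusted p was obtained for many of the leading rows, because the adjustment gives ranked rows a common value.

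The next higher block members, ranked by the smaller of their changes, were dim on the control array. Row 7893596 read 3.84, 5.67 and 6.0 on the control, siSE1 and siSE2 arrays, a difference of 1.99 ± 0.18. Row 7895904 read 5.15, 6.75 and 7.22, a difference of 1.84 ± 0.22. Row 7895103 read 4.85, 6.70 and 6.52, a difference of 1.76 ± 0.15. Rows 7893596 and 7895103 read below 5.12 in the control and are members only through the siRNA arrays.

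The 4 lower block members ranked in the same way read between 4.20 and 5.78 on the siRNA arrays. Row 7893615 read 6.96 in the control, 5.27 for siSE1 and 4.79 for siSE2, a difference of -1.93 ± 0.22. Row 7896065 read 7.07, 5.54 and 5.78, a difference of -1.41 ± 0.16. Row 7894292 read 6.26, 4.38 and 4.93, a difference of -1.60 ± 0.24, and row 7892610 read 6.22, 4.20 and 5.05, a difference of -1.60 ± 0.34. The siRNA arrays lay 1.80-fold apart for row 7892610, which had the largest SE of the 4. Rows 7894292 and 7892610 lay below 5.12 on both siRNA arrays and are members only through the control array.

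Scattered members lie among listed rows, and the order of the listed IDs follows the genome. Of neighbouring pairs of listed rows that name 1 gene, 97.5% name genes of the same chromosome, and 96.9% of those are in ascending order of position. A total of 2424 scattered members (92.5%) had listed rows of 1 chromosome on both sides. The genes of these neighbouring rows are given below as landmarks in the numbering only, and none of them is taken as the gene a member measures. Only the 19428 listed rows naming 1 gene matched to a chromosome served as landmarks. Other listed rows may therefore lie between a member and its landmark. Gene positions come from a RefSeq table whose build may differ from that of the array design, so no coordinates are given.

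Row 7919055, the scattered member farthest above the control, read 9.30 in the control, 10.99 for siSE1 and 10.39 for siSE2. The difference was 1.38 ± 0.26 (SE, n = 2 against 1; limma, adjusted p = 0.204). Its ID lies between those of ZNF697, a zinc finger gene, and REG4, which encodes a secreted lectin of the gut, both on chromosome 1. The REG4 row was also higher on the siRNA arrays, with 5.49, 6.74 and 7.14, while the ZNF697 row read 5.86, 6.06 and 5.92.

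Row 8026954 read 7.80 in the control, 8.87 for siSE1 and 8.83 for siSE2, a difference of 1.05 ± 0.14. Its neighbours on chromosome 19 are MAST3, a kinase gene, and IFI30, which encodes a lysosomal thiol reductase, and they differed from the control by 0.069 and 0.0090. Row 7958051 read 7.25, 8.27 and 8.44, a difference of 1.10 ± 0.15. On chromosome 12 it lies between PARPBP, whose product restrains homologous recombination, at -0.43, and STAB2, a scavenger receptor gene, at 0.50. Row 7910377 read 5.64, 6.71 and 6.61, a difference of 1.02 ± 0.14, between RNF187 at 0.19 and the pseudogene DUSP5P1 at -0.092 on chromosome 1. So the landmark rows around these members did not share one direction.

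The 4 lower scattered members with the largest smaller change came next, of which 3 (8058342, 7993798 and 7950062) lay below 5.12 on both siRNA arrays and are members only through the control array. Row 8058342 read 6.02 there, 4.83 for siSE1 and 4.74 for siSE2, a difference of -1.23 ± 0.14. It lies between TMEM237, a gene of the ciliary transition zone, at -0.44, and ICA1L at -0.090 on chromosome 2. Row 7993798 read 6.02, 5.03 and 5.06, a difference of -0.97 ± 0.14. Its neighbour REXO5, an RNA exonuclease gene of chromosome 16, read 7.47, 6.67 and 6.57, and the neighbour on the other side, LYRM1, differed by 0.27.

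Row 7950062 read 5.89, 4.77 and 5.0, a difference of -1.01 ± 0.16, between SHANK2, a synaptic scaffold gene, at -0.16 and ACTE1P at 0.21 on chromosome 11. Row 8002379 read 6.20, 4.57 and 5.34, a difference of -1.25 ± 0.31, between ST3GAL2, a sialyltransferase gene, at -0.26 and COG4, a Golgi tethering gene, at -0.16 on chromosome 16. Its siRNA arrays were 1.71-fold apart. None of these 8 scattered rows passed the test.

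**Figure D4:**
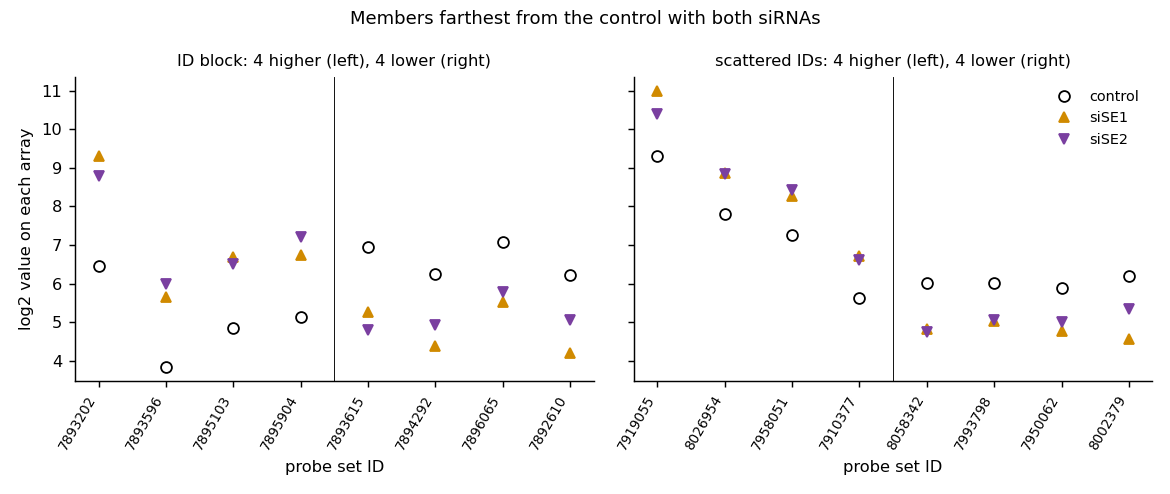
Log2 value on the control (open circles), siSE1 (upward triangles) and siSE2 (downward triangles) arrays for the 8 block members (left) and 8 scattered members (right) farthest from the control with both siRNAs. In every row both siRNA values lie on the same side of the control, by 2.33 or more in row 7893202 and by 0.86 or more in row 8002379.

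As a group the scattered members lay slightly above the control. Their median difference was 0.083 (0.099 with siSE1 and 0.067 with siSE2), against -0.012 over the listed rows and 0.030 in the block. Of the scattered members 51.6% were above the control on both siRNA arrays and 26.5% below it on both, while 37.3% of the listed rows were above on both (39.8% of all rows). With equal array medians 44.0% of the scattered and 30.8% of the listed rows were above on both. The sizes are small beside the SE of a single row, which had a median of 0.15. The gap between the medians varied with level. Between 5.12 and 6 the medians were 0.092 for scattered and 0.087 for listed rows, and between 6 and 7 they were 0.10 and 0.0020. In the higher bins they were 0.056 and -0.061 (7 to 8), 0.052 and -0.060 (8 to 9), -0.0086 and -0.053 (9 to 10), and 0.091 and -0.017 (10 and above), so the scattered median was the higher one in each bin. With equal array medians the scattered median was 0.043 and the listed median -0.052, and the block median turned from 0.030 to -0.0100, so its sign depends on the scaling.

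The slight upward shift of the scattered members was spread over the genome. Grouped by the chromosome of the listed rows around them, 23 chromosomes had at least 20 members, and the median was above 0 on all 23, from 0.017 to 0.16. For 20 of the 23 it was above 0 with equal array medians and for 22 with cyclic loess. All these medians share the same arrays and a single control array, so the chromosomes are not separate observations of a shift. The medians of the listed rows of the same chromosomes ran from -0.096 to 0.040 and were above 0 on 8. The groups were not matched for level here. Between 5.12 and 6 lay 39.2% of the scattered members but 20.7% of the listed rows. In that bin the medians over all chromosomes were 0.092 (scattered) and 0.087 (listed). The part of level in the contrast between chromosome medians was not tested. Chromosome 16 had the highest median, 0.16 over 127 members, which was 0.10 without the longest run of neighbouring IDs.

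That longest run, chosen after its values were seen, held 18 unlisted rows with IDs from 7995312 to 7995352, and 17 of them were members. It lies on chromosome 16 in the numbering, between LOC162137 and ORC6, which encodes a subunit of the origin recognition complex. All 17 members were above the control on both siRNA arrays, as were 51.6% of all scattered members and 39.8% of all rows. Their differences ran from 0.19 to 0.63 with a median of 0.44, and 16 of them were higher with siSE1 than with siSE2. The 17 were also above with equal array medians, quantile normalization and cyclic loess, with medians of 0.41, 0.45 and 0.45. These scalings use the same 3 arrays and moved the differences little, so they are no separate support. Row 7995320, the brightest, read 8.36 in the control, 8.95 for siSE1 and 8.86 for siSE2. Row 7995352 at the end of the run read 7.36, 8.08 and 7.89. None of the 17 reached 1.5-fold with both siRNAs, and none passed the test (limma, smallest adjusted p = 0.227). Of the landmark rows nearest the run, LOC162137 read 6.0, 6.22 and 6.32, above the control on both siRNA arrays like the run. The ORC6 row read 6.33, 6.31 and 6.16. Neighbouring rows of such a run may share sequence, which could not be examined here, so they are not 17 independent measurements.

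**Figure D5:**
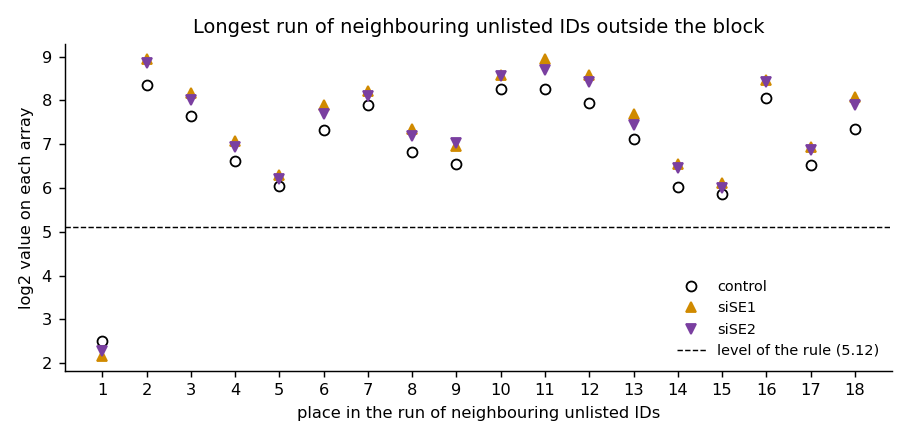
Log2 value on the control, siSE1 and siSE2 arrays for the 18 rows of the longest scattered run, in ID order, with the level of 5.12 dashed. The first row lies below the level, and in the other 17 both siRNA values lie above the control.

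Over all members, those run members included, each member and the next member in ID order showed little in common. Listed rows or rows below 5.12 could lie between such a pair, and 1249 scattered members were in runs of 1 row. The correlations therefore do not show how alike directly neighbouring unlisted IDs are. The Pearson correlation of the difference between a scattered member and the next one in ID order was 0.032 over 2619 pairs, and it was 0.012 over 2725 pairs in the block. For level the correlations were 0.13 and 0.014. At 100 members' distance the level correlation among the scattered IDs was -0.0011. These are correlations across rows of the same 3 arrays and describe this table only. Split into stretches of 500 IDs, the block had median member levels between 7.77 and 8.21 in every stretch. The share of rows at or above 5.12 was 54.3% in the last, shorter stretch and 62.1% to 67.7% in the others.

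Some members are not separate measurements, since they repeat another row's values exactly on all 3 arrays. This held for 136 scattered members (5.19%) and 2 block members, in 60 sets of rows, and the largest set held 8 rows. Counted once each, the members give 5268 different value triples. The brightest set was rows 8112916 and 8174970, with 13.67 in the control, 13.82 for siSE1 and 13.76 for siSE2. In the numbering these lie on different chromosomes, between ANKRD34B and ACOT12 on chromosome 5 and between DCAF12L2 and DCAF12L1 on chromosome X. Rows 8113120 and 8165707 read 9.33, 10.34 and 9.65, and rows 7896752 and 8165667 read 9.58, 10.27 and 10.06. Among the 13 sets with a mean of 9 or more, 7 were above the control on both siRNA arrays, and among all 60 sets 35 were. For comparison, 51.6% of the scattered members and 39.8% of all rows were above it on both.

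In 3 sets a member had the values of a listed row. Block row 7896691 repeated the row of IL2RB, a receptor gene of lymphocytes, with 5.40, 5.86 and 5.53. Scattered members repeated rows of CDK11B, a cyclin-dependent kinase gene of RNA processing, in 2 sets, one with 7.11, 7.21 and 7.18 and the other with 7.09, 7.22 and 7.19. Close by in the block, unlisted rows 7896693 and 7896694, below the level, repeated the rows of CD69 and IL10RA, which are also genes of blood cells. CD69 read 3.36, 3.60 and 3.36, and IL10RA read 4.20, 4.75 and 4.75. These rows were chosen after their values were seen, as were the sets with no listed row. Near the block's end, row 7896736 repeated scattered row 8023933, with 7.16, 6.31 and 5.77.

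The 4 members on which the siRNAs differed most, 2 in each direction, were all in the block. Row 7894140 read 7.58 in the control, 4.76 for siSE1 and 6.99 for siSE2, so siSE2 lay 4.71-fold above siSE1. Row 7896262 read 5.77, 4.88 and 6.80, on opposite sides of the control. In the other direction row 7893570 read 6.08, 5.98 and 4.21, and row 7894570 read 5.01, 6.46 and 4.74. With 1 array each there is no test of these differences. In 3 members, all in the block, the siRNAs were past 1.5-fold in opposite directions, against 0 of the listed rows.

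For reference, the parent genes of the targeted chimera read 9.66, 9.14 and 9.27 (SLC45A3) and 8.50, 8.45 and 8.20 (ELK4) on the control, siSE1 and siSE2 arrays. Both rows report whole parent genes and do not check the knockdown of the junction. Of 20 housekeeping genes 15 had a row naming them alone, in 18 rows, and 0 rows were 1.5-fold from the control with both siRNAs. Their median difference was -0.050. The TUBB rows among them hold the same values on every array, so they are not separate measurements, but each was counted. Of 8 luminal prostate markers 5 had a row naming them alone, in 6 rows. These had means from 9.59 to 10.52 and differences from -0.39 (KLK3) to 0.55 (KRT18). Markers of other cells were not all dim: the basal keratin KRT14 read 5.90, 6.20 and 5.99 and the stromal collagen COL1A1 read 6.94, 6.99 and 6.97, while the stromal LUM read 2.41, 2.45 and 2.47. All 3 blood cell marker genes with a row lay between 3.17 and 4.28 on every array. The log2 of their summed linear values was 5.48 in the control, 5.52 for siSE1 and 5.54 for siSE2. Array medians over all 33297 rows were 5.80, 5.84 and 5.84. Across the members the Pearson correlation of the arrays was 0.982 for control and siSE1, 0.987 for control and siSE2 and 0.990 for siSE1 and siSE2.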

How the data were processed

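Per the submitters' processing notes, the authors used Affymetrix Expression Console for the deposited values. Its algorithm and background correction were not given in the sources used here, nor was a genome build. The deposited values were taken to be log2 from their range, 1.43 to 13.87. Rows were used as deposited, with 1 column per array and no filter before the level of 5.12. A row was called unlisted where its ID is absent from the platform's probe-to-gene annotation, and a block was an uninterrupted run of at least 50 unlisted rows in ID order. siSE1 and siSE2 (n = 2) were set against the control (n = 1) by limma 3.58.1 in R 4.3.3 (lmFit and eBayes, two-sided). Benjamini-Hochberg adjustment ran over all 20315 rows at or above 5.12, and the threshold on the adjusted p was 0.05. SE are moderated standard errors. The fit was tested on simulated data, where it recovered most changed rows but made more false calls than the threshold allows. The simulated spread did not depend on level or ID range. In the data it did: for block members the SD of siSE1 minus siSE2 was 0.55 between 5.12 and 6 and 0.18 at 10 and above. The simulated recovery may therefore not hold for the rows described here. Fold counts have no test. The rows named are, in each ID range, the 4 higher and 4 lower members ranked by whichever of their 2 changes was smaller, the brightest, those nearest the level, the 2 farthest apart between the siRNAs in each direction, and listed genes whose values a member repeats; others are marked. The members, lists and tests were chosen with earlier results of these data known. Neighbouring genes and chromosomes come from RefSeq (GRCh38.p14) by gene identifier. Alternatives were other normalizations, filters, priors, thresholds, block lengths, leaving out an siRNA array and, added after seeing the data, counting repeated values once. The number of arrays limits the precision.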

Additional observations from a re-analysis of the deposited data

Results flagged for a closer look

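Unlisted rows below the level of 5.12 belong to no comparison of the report, and some lay 1.5-fold or more from the control array with both siRNAs. Of 6737 such rows 131 (1.94%) were higher and 188 (2.79%) lower, against 0.496% and 0.368% of the 6245 listed rows below the level. The ID block held most of them, with 76 higher (5.15%) and 139 lower (9.41%) of its 1477 rows, while the 5260 scattered rows had 55 (1.05%) and 49 (0.932%). With no filter on dim rows in the fit, 0 of the 6737 passed (limma, smallest adjusted p = 0.454), and 786 had an unadjusted p under 0.05. Those 786 were 351 of the 1477 block rows and 435 of the 5260 scattered rows. Of the 6245 listed rows below the level, 376 had an unadjusted p under 0.05 in the same limma fit.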

How the results depend on the processing

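No member passed the test under any of the 9 alternatives to the fit, and the smallest adjusted p ran from 0.111 (a prior with a trend) to 0.458 (only unlisted rows in the fit). At 2-fold with both siRNAs, which calls fewer rows by construction, 18 of 2726 block members were higher and 10 lower. Of 2620 scattered members 3 were higher and 1 lower. Over all 20315 rows in the fit 36 were higher and 24 lower, and over the 14969 listed rows 15 and 13. With a single siRNA array the 1.5-fold counts ran from 172 to 236 (block, higher), 151 to 231 (block, lower), 56 to 135 (scattered, higher) and 44 to 79 (scattered, lower), since 1 array then decides. The block median ran from 0.028 to 0.042 and the scattered median from 0.067 to 0.099 with a single siRNA array. With equal array medians, which move the difference of every row by the same amount, they were -0.0100 and 0.043. With a level of at least 6 the block median was 0.041. That level leaves out the block members between 5.12 and 6, whose median was -0.065. Other normalizations, block lengths and counting repeats once left each 1.5-fold count within 1.5 times, but not the balance of higher and lower: as deposited 92 and 70 (block) and 31 and 17 (scattered), with equal array medians 78 and 85, and 23 and 23. No paired analysis was possible because the control group has 1 array, so the groups share fewer than 2 replicate numbers. Depth does not apply to arrays; signal over background was not given in the values used here.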
